A study of Canis lupus familiaris with 6 samples.

Results

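Interferon-stimulated genes and RNA sensors form the antiviral gene programme of a cell. The 39 genes considered here were chosen by symbol, with earlier results of these data known. Of these, 37 were listed among the 41401 gene symbols of the deposited tables. The list holds sensors of viral RNA with their adaptor, the STAT and IRF transcription factors that relay the signal, antiviral effectors, and the interferon gene IFNB1. IFIT1 and IFI27 were not found under their symbols and were not analysed here. Of the 37 genes, 29 reached a mean of at least 1 FPKM (mapped fragments scaled to transcript length and library depth) over all libraries and were tested, among 12125 genes tested in all.

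RNA was sequenced from MDCK cells, an epithelial line of canine kidney, in a study of PRL phosphatases, cellular magnesium and cell death. Clone 1 and clone 2 are labelled PRL2-/-; PRL1+/-, and each is a single clone. They were set beside wild-type cells, and each line gave 1 library after PRL1 siRNA and 1 after control siRNA, 6 in all. Cells were transfected on a pair of occasions and lysed for RNA 18 h after the last. The groups were 2 clone libraries with PRL1 siRNA, 2 clone libraries with control siRNA, 1 wild-type library with PRL1 siRNA and 1 wild-type library with control siRNA. All libraries therefore come from cells that carried a transfected siRNA duplex. Whether libraries came from independently grown cultures is not stated, and the p-values reflect only how far these lines and libraries scatter.

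In vertebrate cells, RIG-I and MDA5 bind foreign RNA in the cytoplasm and signal through MAVS on mitochondria to TBK1 and IRF3, which switch on interferon genes. Secreted interferon binds IFNAR1 and IFNAR2, and the kinases JAK1 and TYK2 then activate STAT factors. STAT2 and IRF9 are part of the factor ISGF3, which drives the interferon-stimulated genes, including many of the sensors and factors themselves. IRF1 can be induced through NF-κB as well as by interferon. Most of these roles were worked out in human and mouse cells.

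The targeted transcript, PTP4A1, which encodes PRL1, was at 37.8 FPKM in clone 1, 37.8 FPKM in clone 2 and 33.1 FPKM in wild type under PRL1 siRNA, against 61.7, 69.9 and 63.5 FPKM under control siRNA. It was lower in every line. PTP4A2, which encodes PRL2, was at 69.1 FPKM in clone 1, 48.3 FPKM in clone 2 and 59.0 FPKM in wild type under PRL1 siRNA, against 80.4, 56.7 and 72.7 FPKM under control siRNA. Neither transcript was lower in both clones than in wild type under the same siRNA, so the labelled genotype is not visible in these gene-level values. Between 22961 and 23964 symbols were above 0 in a library. The number of fragments is unknown, and the depth read from low values was between 0.768 and 1 relative to the wild-type control library. All 8 kidney epithelial markers were at a mean of at least 1 FPKM. None of the listed markers of leukocytes, plasmacytoid dendritic cells, fibroblasts or endothelium reached that mean, PTPRC and CD3E among them at 0 in all 6 libraries. In bulk RNA, fewer cells that express a gene and less of its RNA per cell cannot be told apart.

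Under PRL1 siRNA many of the listed interferon-stimulated genes were lower, CMPK2, IFI44, RSAD2 and MX1 among them, while IRF1, IRF3, IFI35 and GBP1 were higher. In the fit over 3 lines with the line as block (limma on log2(FPKM + 1), Benjamini-Hochberg adjustment over all genes), 14 of the 29 tested members fell and 4 rose. Over all 12125 genes, 21.7% were lower and 17.6% were higher by the same rule. The remaining 11 members did not pass. At an unadjusted p under 0.05 there were 24 members, with 50.5% of all genes at that level. The median log2 fold change was -0.28 for the members and -0.01 for all genes tested. For 21 further interferon-stimulated genes tested outside the list it was 0.07, with 7 higher and 1 lower. Fold changes on this scale understate those of low genes. In the text "fell" and "rose" refer to this fit unless another is named. Without clone 1, 8 members were called lower in place of 14, without the line as block 2 were called lower and 0 higher, and with no filter on low values 0 were called in either direction (limma).

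By class, 11 of 19 tested antiviral effectors fell and 2 rose, with a median log2 fold change of -0.34. Among 5 STAT and IRF factors, 2 fell and 2 rose, with a median of 0.06. Among the 5 RNA sensors with their adaptor, 1 fell and 0 rose, with a median of -0.105. Differences between the 3 classes were not tested.

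**Figure D1:**
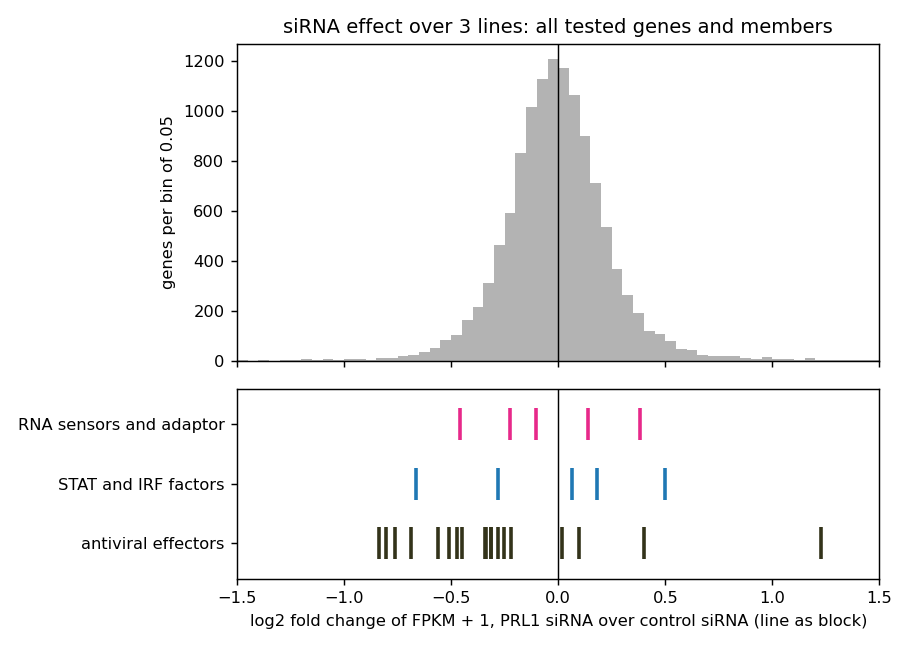
Log2 fold changes of PRL1 siRNA over control siRNA in the fit over 3 lines, as a histogram of all tested genes (top) and as 1 tick per tested member in each class (bottom). Effectors lie mostly left of 0 with GBP1 far to the right at 1.23, while the sensors and the STAT and IRF factors lie on both sides of 0; 30 genes fall outside the plotted range.

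The RNA sensors did not move as a block. DHX58 encodes LGP2, a relative of RIG-I without the signalling domains. It had 10.5 FPKM in clone 1, 12.9 in clone 2 and 13.2 in wild type under PRL1 siRNA, against 14.0, 15.7 and 22.2 FPKM under control siRNA. The transcript was thus lower in every line, with a log2 fold change of -0.46 ± 0.09 (SE, n = 3 lines, limma, adjusted p = 0.0117; 0.0637 without clone 1). DDX58, which encodes RIG-I, had 12.6 FPKM in clone 1, 15.9 in clone 2 and 8.89 in wild type under PRL1 siRNA, against 8.15, 10.1 and 9.08 FPKM under control siRNA. Both clones were higher under PRL1 siRNA and wild type differed little. Over 3 lines DDX58 did not pass (0.38 ± 0.13, adjusted p = 0.0638), and it did when genes were held to a mean of 5 FPKM (0.0445).

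Within the clones alone DDX58 passed when the clone was kept as block (0.58 ± 0.04, SE, n = 2 clones, limma, adjusted p = 0.0072). In a fit to all 6 libraries without the block, DDX58 did not pass in the clones (limma, adjusted p = 0.178). The difference between its siRNA effect in the clones and in wild type was 0.61 on the log2 scale, with a 95% interval of -0.17 to 1.39, and did not pass either (adjusted p = 1.00). IFIH1, which encodes MDA5, had 11.9 FPKM in clone 1, 13.2 in clone 2 and 9.60 in wild type under PRL1 siRNA, against 11.9, 13.2 and 12.2 FPKM under control siRNA. Its level was the same to 3 digits in both clones and lower in wild type. MAVS, the adaptor, stayed between 9.53 and 11.9 FPKM in all libraries. EIF2AK2, which encodes the RNA-activated kinase PKR, ranged from 32.0 to 46.7 FPKM and was at -0.22 ± 0.09 over 3 lines (adjusted p = 0.0885; 0.0454 without clone 2).

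Among the transcription factors, IRF7 and IRF9 fell while IRF1 and IRF3 rose. IRF7, the interferon-inducible amplifier of type I interferon genes, had 2.99 FPKM in clone 1, 4.99 in clone 2 and 3.46 in wild type under PRL1 siRNA, against 5.69, 9.03 and 5.32 FPKM under control siRNA. The knockdown library of each line was below all 3 control libraries, so the groups did not overlap. The log2 fold change was -0.66 ± 0.07 (SE, n = 3 lines, limma, adjusted p = 0.00225). IRF9, the DNA-binding subunit of ISGF3, had 12.1 FPKM in clone 1, 14.2 in clone 2 and 13.6 in wild type under PRL1 siRNA, against 14.7, 16.0 and 18.5 FPKM under control siRNA (-0.28 ± 0.06, adjusted p = 0.0153; 0.0844 without clone 1). Again the groups did not overlap. STAT2, a subunit of ISGF3, ranged from 18.2 to 22.9 FPKM and did not pass (0.06 ± 0.04, adjusted p = 0.289).

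IRF1 had 53.1 FPKM in clone 1, 53.8 in clone 2 and 35.7 in wild type under PRL1 siRNA, against 29.6, 44.1 and 27.0 FPKM under control siRNA. Each line was higher under PRL1 siRNA, although the wild-type knockdown library lay below the control library of clone 2. The log2 fold change was 0.50 ± 0.105 (SE, n = 3 lines, adjusted p = 0.0161). IRF3, which is expressed constitutively and activated by phosphorylation, had 78.1 FPKM in clone 1, 79.6 in clone 2 and 83.2 in wild type under PRL1 siRNA, against 68.5, 76.0 and 67.8 FPKM under control siRNA. The rise was small, 0.18 ± 0.05 (adjusted p = 0.0374), and was lost without wild type (adjusted p = 0.0906), without clone 1 (0.156) and without an intensity trend (0.0608).

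**Figure D2:**
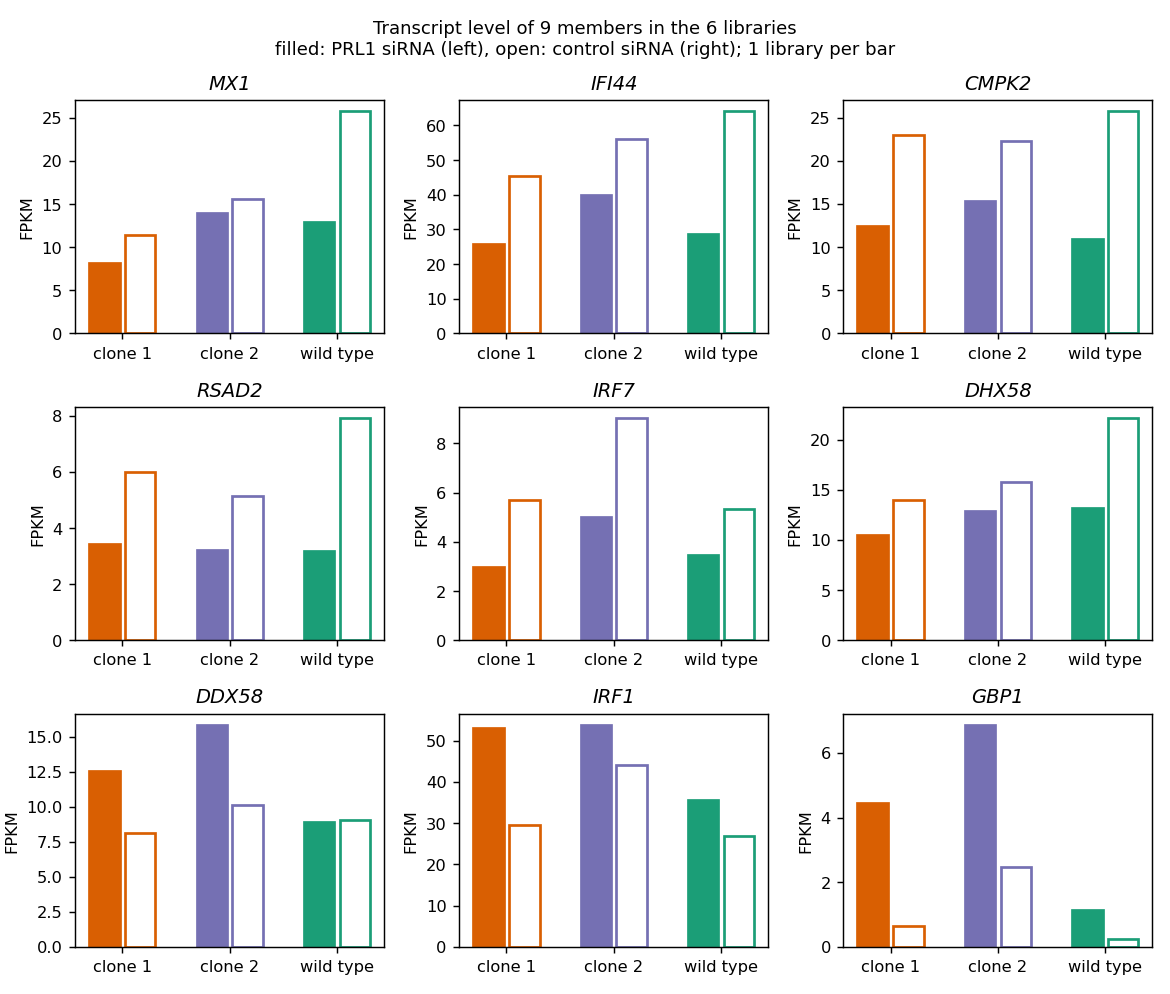
Transcript level in FPKM of 9 members in the 6 libraries, by line, with PRL1 siRNA filled and control siRNA open and 1 library per bar. MX1, IFI44, CMPK2, RSAD2, IRF7 and DHX58 are lower under PRL1 siRNA in each line, IRF1 and GBP1 are higher in each line, and DDX58 is higher in both clones and at 8.89 against 9.08 FPKM in wild type.

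The deepest falls among the effectors were in CMPK2, IFI44, RSAD2 and IFI44L. CMPK2, a mitochondrial nucleotide kinase, had 12.5 FPKM in clone 1, 15.3 in clone 2 and 10.9 in wild type under PRL1 siRNA, against 23.0, 22.3 and 25.7 FPKM under control siRNA (-0.84 ± 0.12, SE, n = 3 lines, limma, adjusted p = 0.00507). RSAD2, which encodes viperin, an enzyme that makes a chain-terminating nucleotide, had 3.44, 3.23 and 3.18 FPKM in the same lines under PRL1 siRNA, against 5.99, 5.14 and 7.92 FPKM under control siRNA (-0.76 ± 0.11, adjusted p = 0.0058). For both genes every knockdown library was below every control library. These 2 genes also passed when the line was left out of the model.

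IFI44, an interferon-induced cytoplasmic protein, had 25.7 FPKM in clone 1, 39.9 in clone 2 and 28.7 in wild type under PRL1 siRNA, against 45.5, 56.0 and 64.0 FPKM under control siRNA. Its relative IFI44L had 8.43, 13.8 and 8.28 FPKM in these lines under PRL1 siRNA, against 12.9, 18.1 and 19.3 FPKM under control siRNA. Log2 fold changes were -0.80 ± 0.12 for IFI44 (adjusted p = 0.00576) and -0.69 ± 0.14 for IFI44L (adjusted p = 0.0152; 0.0687 without clone 1). The groups did not overlap for IFI44, and for IFI44L the knockdown library of clone 2 exceeded the control library of clone 1.

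MX1, a dynamin-like GTPase that blocks virus replication, had 8.16 FPKM in clone 1, 14.0 in clone 2 and 12.9 in wild type under PRL1 siRNA, against 11.4, 15.6 and 25.7 FPKM under control siRNA. It was lower in each line, by far the most in wild type, and the groups overlapped. The fall of 0.51 ± 0.14 (adjusted p = 0.0387) was lost without wild type (adjusted p = 0.0615), without clone 1 (0.132) and without an intensity trend (0.0553).

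PARP14 and PARP9, ADP-ribosyltransferase family proteins that take part in interferon signalling, fell with narrow errors. PARP14 had 5.35 FPKM in clone 1, 8.43 in clone 2 and 5.15 in wild type under PRL1 siRNA, against 8.14, 11.6 and 9.29 FPKM under control siRNA (-0.56 ± 0.07, adjusted p = 0.00399). PARP9 had 12.9, 16.7 and 13.7 FPKM in these lines under PRL1 siRNA, against 18.2, 21.4 and 21.4 FPKM under control siRNA (-0.47 ± 0.06, adjusted p = 0.00396). For PARP9 the groups did not overlap, while for PARP14 the knockdown library of clone 2 exceeded the control library of clone 1. DTX3L, the ubiquitin ligase that binds PARP9, ranged from 18.1 to 26.9 FPKM and did not pass (-0.28 ± 0.09, adjusted p = 0.0589; 0.0468 without clone 2).

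Of the genes that serve ISG15 or ubiquitin, HERC6, USP18 and TRIM25 fell. ISG15 is a ubiquitin-like protein that is joined to other proteins. HERC6, its ligase in the mouse, had 40.7 FPKM in clone 1, 39.1 in clone 2 and 43.3 in wild type under PRL1 siRNA, against 56.3, 48.3 and 65.6 FPKM under control siRNA (-0.45 ± 0.06, adjusted p = 0.0046). USP18, the protease that removes ISG15, had 16.1, 25.9 and 15.7 FPKM in these lines under PRL1 siRNA, against 19.5, 28.4 and 25.1 FPKM under control siRNA (-0.34 ± 0.10, adjusted p = 0.041). The groups did not overlap for HERC6 and did for USP18, whose call was lost without clone 1 (adjusted p = 0.122), without an intensity trend (0.0587) and with centred libraries (0.0549). ISG15 itself had 45.1 FPKM in clone 1, 84.5 in clone 2 and 51.7 in wild type under PRL1 siRNA, against 56.0, 84.9 and 84.5 FPKM under control siRNA, and did not pass (-0.34 ± 0.12, adjusted p = 0.0797; 0.0331 without clone 2). TRIM25, a ubiquitin ligase that acts on RIG-I in human cells, had 25.8, 27.95 and 29.1 FPKM in the 3 lines under PRL1 siRNA, against 29.7, 35.3 and 34.4 FPKM under control siRNA (-0.25 ± 0.04, adjusted p = 0.00838; 0.0509 without clone 2).

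The oligoadenylate synthetases make the messenger that activates RNase L. OAS2, the member with the second highest mean level, had 47.6 FPKM in clone 1, 110.2 in clone 2 and 47.4 in wild type under PRL1 siRNA, against 60.6, 113 and 70.5 FPKM under control siRNA. Clone 2 stood above both other lines under either siRNA and differed least between them. OAS2 fell by 0.31 ± 0.10 (adjusted p = 0.0481), a call that was lost without wild type (adjusted p = 0.137), without clone 1 (0.184), without an intensity trend (0.0701) and with centred libraries (0.0667). OAS1 had 35.8 FPKM in clone 1, 54.4 in clone 2 and 40.9 in wild type under PRL1 siRNA, against 45.2, 54.3 and 63.5 FPKM under control siRNA, and did not pass (-0.31 ± 0.11, adjusted p = 0.0751; 0.0251 without clone 2). OAS3, at 12.2 to 22.8 FPKM, did not pass either (adjusted p = 0.0993). Copies within the OAS, IFIT and guanylate-binding families resemble each other, so fragments may have been split between them.

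GBP1 and IFI35 were the effectors that rose. GBP1, a guanylate-binding GTPase that coats intracellular pathogens, had 4.45 FPKM in clone 1, 6.87 in clone 2 and 1.14 in wild type under PRL1 siRNA, against 0.657, 2.47 and 0.243 FPKM under control siRNA. Each line was higher under PRL1 siRNA, and the clones were higher than wild type under the same siRNA. The log2 fold change was 1.23 ± 0.17 (SE, n = 3 lines, limma, adjusted p = 0.0051), the largest in size among the tested members. GBP1 passed the filter on low values mainly through the clones. IFI35, a leucine-zipper protein induced by interferon, had 21.7, 23.9 and 20.2 FPKM in clone 1, clone 2 and wild type under PRL1 siRNA, against 15.4, 17.4 and 16.2 FPKM under control siRNA (0.40 ± 0.05, adjusted p = 0.00319). Its groups did not overlap.

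ISG20, an RNA exonuclease, had 2.83 FPKM in clone 1, 3.98 in clone 2 and 1.63 in wild type under PRL1 siRNA, against 1.91, 2.72 and 2.78 FPKM under control siRNA. It was higher in both clones and lower in wild type. Over 3 lines it did not pass (0.10 ± 0.19, adjusted p = 0.714). In the clones alone it passed with the clone as block (0.41 ± 0.07, limma, adjusted p = 0.0201). In the fit to all 6 libraries without the block, ISG20 did not pass in the clones (limma, adjusted p = 0.334). The difference between clones and wild type was 0.93 with a 95% interval of -0.05 to 1.91 (adjusted p = 1.00). IFIT5, an RNA-binding protein, stayed between 21.2 and 27.2 FPKM.

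Line by line, most of the members that fell differed most in wild type and least in clone 2. The members that rose shared no single order. The 14 members that fell had a median log2 difference of -0.46 in clone 1, -0.33 in clone 2 and -0.67 in wild type, and wild type was the lowest of the 3 lines for 12 of them, all but IRF7 and TRIM25. Clone 1 was lower than clone 2 for 13 of the 14. The share of all genes with either order was not counted. The 4 members that rose had a median of 0.65 in clone 1, 0.36 in clone 2 and 0.35 in wild type. Wild type was the highest line for 1 of them, IRF3, and clone 1 was higher than clone 2 for all 4. Within a line, 1 library stands against 1, with no replicate check, and these members were chosen by the fit over the same libraries.

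Over all 29 tested members, those at least 1.5-fold lower numbered 4 in clone 1, 1 in clone 2 and 12 in wild type, where 1.89%, 2.08% and 1.59% of all genes were that much lower. Those at least 1.5-fold higher numbered 2, 2 and 1, where 2.71%, 2.14% and 2.09% of all genes were that much higher. The median over the 29 members was -0.26 in clone 1, -0.04 in clone 2 and -0.52 in wild type, while the median over all genes was between -0.02 and -0.00 in each line. The same direction in all 3 lines was found for 18 members that were lower, against 35.8% of all genes, and for 5 that were higher, against 31.6% of all genes.

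**Figure D3:**
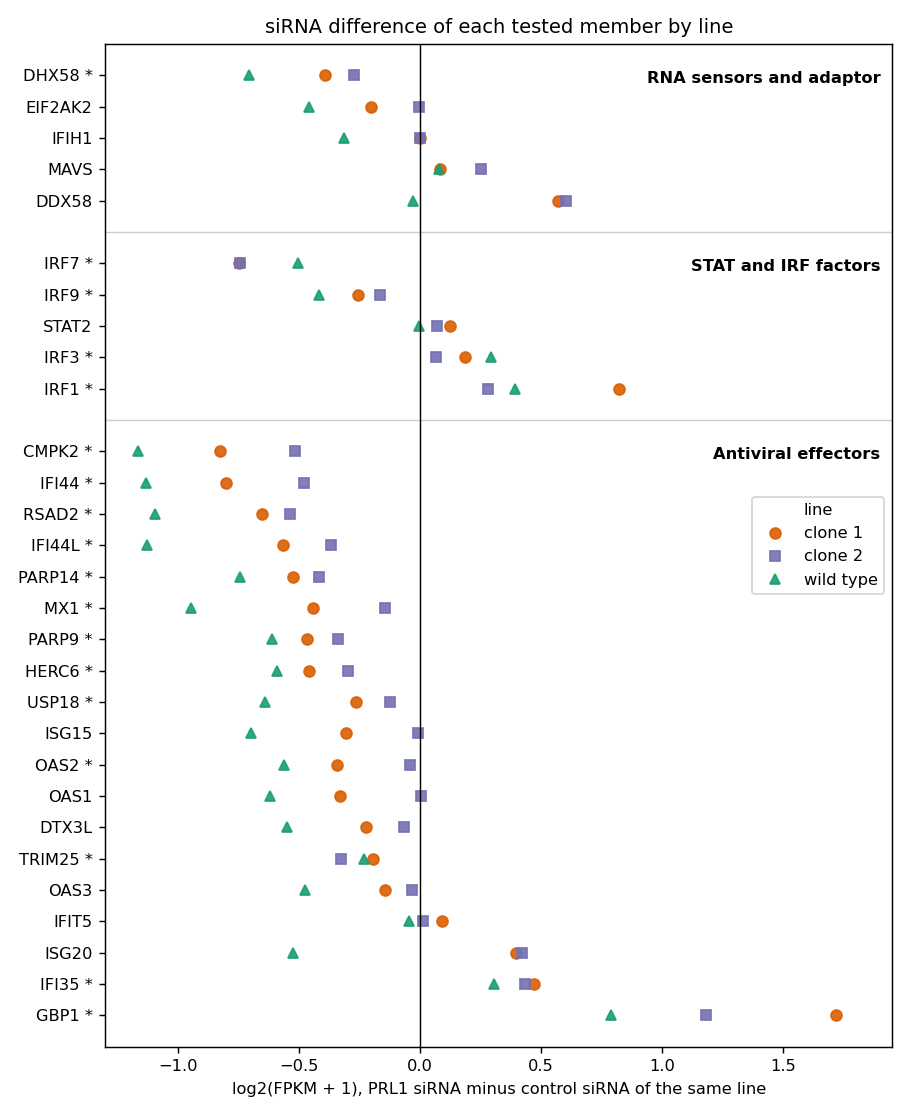
Difference in log2(FPKM + 1) between PRL1 siRNA and control siRNA for each of the 29 tested members, with 1 symbol per line; an asterisk marks the 18 members that passed over 3 lines. For most effectors the wild-type symbol lies farthest left and that of clone 2 nearest to 0, as for MX1 at -0.44 in clone 1, -0.15 in clone 2 and -0.94 in wild type.

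In the clones, the fit of 4 groups without a block called 0 of 29 members and 0% of all genes by limma. It held all 6 libraries, wild type included. At an unadjusted p under 0.05 it counted 6 members, with 21.2% of all genes at that level. With the clone as block, fitted to the 4 clone libraries alone, 12 members fell and 5 rose. By that fit 19% of all genes were lower and 14.3% were higher, 33.3% together. DDX58 and ISG20 were called higher here and not over 3 lines, while OAS2, MX1 and IRF3 were called over 3 lines and not here. The 2 libraries of a clone share their source. Across genes, which are not independent replicates, their departures from their group averages had a correlation of r = 0.595. This fit has 1 residual degree of freedom.

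The difference between the siRNA effects of clones and wild type was tested in the fit of 4 groups, and 0 of 29 members passed (0% of all genes). At an unadjusted p under 0.05 there was 1 member, RSAD2 (0.50, 95% interval 0.01 to 0.98, adjusted p = 1.00), with 1.12% of all genes at that level. The difference was above 0 for 26 of the 29 members and for 5978 of all 12125 genes, with medians of 0.37 and -0.00. It was also above 0 for 37 of the 48 tested pathway genes outside the members, which are described below. All of these differences share the same pair of wild-type libraries, so the number of members adds no replicates.

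Clones and wild type were next set side by side under the same siRNA. Under control siRNA 0 of 29 members passed (limma, 0% of all genes), with 3 at an unadjusted p under 0.05 where 13.5% of all genes were. These were DHX58 (-0.55, 95% interval -0.97 to -0.12, adjusted p = 0.316), RSAD2 (-0.45, -0.79 to -0.10, adjusted p = 0.314) and HERC6 (-0.33, -0.65 to -0.00, adjusted p = 0.365), each lower in the clones. MX1, with 11.4 and 15.6 FPKM in the clones against 25.7 FPKM in wild type, gave -0.90 with an interval of -1.91 to 0.12 (adjusted p = 0.403). Both clones lay below wild type for 13 members and above it for 4, against 29.9% and 43.6% of all genes.

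Under PRL1 siRNA both clones lay below wild type for 5 members and above it for 15, against 31.1% and 42.9% of all genes. For 5 members, DTX3L, RSAD2, CMPK2, ISG20 and IFI44L, both clones were above wild type under PRL1 siRNA and below it under control siRNA. DHX58, MAVS and HERC6 were below wild type in both clones under either siRNA, and GBP1 and IRF1 were above it. IRF3 was below wild type in both clones under PRL1 siRNA and above it under control siRNA. How many of all genes held each of these combined positions was not counted. No member passed (limma, 0 of 29 and 0% of all genes), with 4 at an unadjusted p under 0.05 where 14.8% of all genes were. These 4 were GBP1 (1.61, adjusted p = 0.323), ISG20 (0.73, adjusted p = 0.326), DDX58 (0.61, adjusted p = 0.317) and IFIH1 (0.36, adjusted p = 0.304), each higher in the clones. Both genotype comparisons rest on 1 wild-type library each.

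Of the 8 members under the filter, none exceeded 2.78 FPKM in any library. IFNB1, the gene of interferon beta, was listed at 0 in 5 libraries and at 0.0474 FPKM in clone 2 under PRL1 siRNA. XAF1 did not exceed 0.0392 FPKM. IFIT2, IFIT3, HERC5 and MX2 stayed between 0.151 and 1.63 FPKM. IFI6 had 0.412 FPKM in clone 1, 2.78 in clone 2 and 0.0722 in wild type under PRL1 siRNA, against 0.152, 0.349 and 0.0939 FPKM under control siRNA. OASL had 1.05, 1.38 and 0.559 FPKM in these lines under PRL1 siRNA, against 0.818, 0.664 and 0.658 FPKM under control siRNA. Neither was tested.

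Other genes of the pathway, taken from lists of receptors, JAK-STAT components, nucleic acid sensors, further interferon-stimulated genes and interferons, were counted in the same way. Of 48 tested, 13 rose and 5 fell over 3 lines, with a median of 0.03, where 17.6% of all genes were higher and 21.7% were lower. The difference from the 39 listed genes was not tested. Of 15 receptor and JAK-STAT genes 3 rose and 4 fell, of 10 sensing genes 1 rose and 0 fell, and of 21 further interferon-stimulated genes 7 rose and 1 fell. IFNAR1, a chain of the type I interferon receptor, had 16.3 FPKM in clone 1, 14.7 in clone 2 and 14.7 in wild type under PRL1 siRNA, against 24.3, 24.8 and 23.9 FPKM under control siRNA. It fell by 0.64 ± 0.05 (adjusted p = 0.0015), with no overlap between groups, and passed under all 9 alternatives run. PTPN2, a phosphatase that inactivates JAK kinases, had 20.95 FPKM in clone 1, 16.7 in clone 2 and 20.2 in wild type under PRL1 siRNA, against 28.5, 24.85 and 29.3 FPKM under control siRNA (-0.50 ± 0.04, adjusted p = 0.00165). The phosphatase gene PTPN11 fell by 0.42 ± 0.04 and IFNLR1, a chain of the interferon lambda receptor, by 0.35 ± 0.10 (adjusted p = 0.00175 for PTPN11 and 0.0405 for IFNLR1). The call on IFNLR1 was lost without clone 1 (adjusted p = 0.171) or clone 2 (0.155).

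Both tested interferon genes rose. IFNE, which encodes an epithelial type I interferon, had 4.42 FPKM in clone 1, 4.92 in clone 2 and 4.71 in wild type under PRL1 siRNA, against 1.81, 2.28 and 2.83 FPKM under control siRNA (0.79 ± 0.09, adjusted p = 0.00261). IFNK, known as the interferon of keratinocytes, had 6.84, 15.8 and 2.32 FPKM in these lines under PRL1 siRNA, against 4.52, 5.51 and 1.60 FPKM under control siRNA (0.74 ± 0.19, adjusted p = 0.0315; 0.0888 without clone 1). Clone 2 under PRL1 siRNA was the highest library for both genes, and only IFNE separated the groups. GBP5, a relative of GBP1, had 4.48 FPKM in clone 1, 5.75 in clone 2 and 1.75 in wild type under PRL1 siRNA, against 0.75, 2.42 and 0.53 FPKM under control siRNA (1.16 ± 0.16, adjusted p = 0.00488). IL10RB, a receptor chain shared by interferon lambda and interleukin-10, rose by 0.62 ± 0.06 (adjusted p = 0.00194). The kinase gene TBK1 was between 19.0 and 21.9 FPKM and did not pass (-0.10 ± 0.04, adjusted p = 0.0771).

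**Figure D4:**
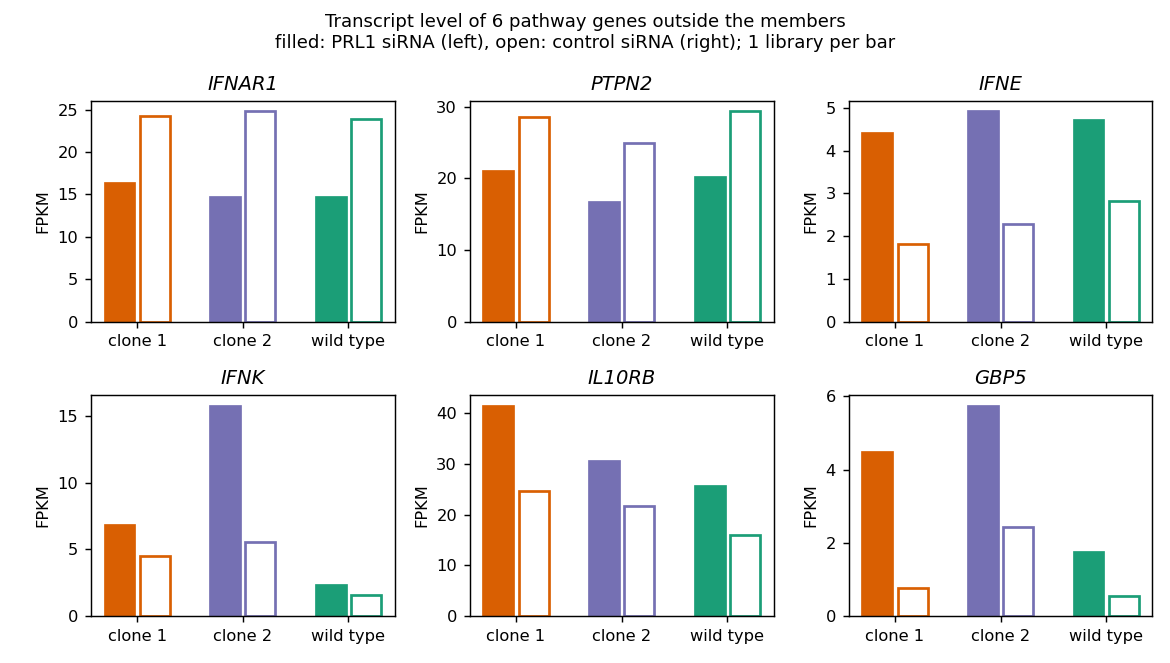
Transcript level in FPKM of 6 pathway genes outside the list of 39, by line, with PRL1 siRNA filled and control siRNA open and 1 library per bar. IFNAR1 and PTPN2 are lower under PRL1 siRNA in each line, and IFNE, IFNK, IL10RB and GBP5 are higher in each line.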

How the data were processed

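The authors deposited FPKM values by gene symbol, 1 table for each library. HISAT2 2.1.0, Cufflinks 2.2.1 and Cuffdiff are named in the submitters' processing notes. Per the labels' protocols, RNA came from miRNeasy columns and libraries from a TruSeq stranded mRNA kit. The sources used here do not give genome build, annotation or strand setting. Coordinates are therefore left out, and overlapping genes may share fragments. Relative depth is the most frequent ratio of the value in the wild-type control library to that in the library, over values below 0.1 FPKM. No counts were rebuilt.

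Genes averaging 1 FPKM or more were tested on log2(FPKM + 1) by limma 3.58.1 (R 4.3.3) with an intensity trend and a Benjamini-Hochberg threshold of 0.05. One model held the line and the siRNA (2 residual degrees of freedom, prior 3.58). The other held 4 groups of genotype and siRNA (2, prior 1.95), where lone wild-type libraries are assumed to vary like the clones. The clone numbers pair the samples because both libraries come from the same clone; that block (1 residual degree of freedom, prior 3.19) was fitted to the 4 clone libraries. Procedures were tested on data simulated from the fitted model of line and siRNA with random noise. The check was on recovered fold changes, so it does not show how often genes are falsely called in these libraries. Alternatives were another pseudocount, other filters, no trend, centring, and leaving out libraries or lines.

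The members and lists were chosen with earlier results of these data known. Values in every library were given for tested members that passed a test or differed at least 1.5-fold in a line; other pathway genes were limited to 4 per direction past the threshold, with TBK1, and those 4 were taken by size after their values were seen. No promoter sequences were used here, and 1 pathway gene the rule names is not reported here.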

Additional observations from a re-analysis of the deposited data

Results flagged for a closer look

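Among the 8 members too low to be tested, 2 had a siRNA difference of one sign in both clones and of the other sign in wild type. The share of all genes with this pattern was not counted, and the difference between the genotypes was not tested. For OASL the log2 difference of PRL1 siRNA minus control siRNA was 0.17 in clone 1 and 0.515 in clone 2, against -0.0886 in wild type. For IFI6 it was 0.294 in clone 1 and 1.49 in clone 2, against -0.0289 in wild type. The level of IFI6 in clone 2 under PRL1 siRNA was 2.78 FPKM, against 0.349 FPKM under control siRNA. In wild type the levels were low, at 0.0722 against 0.0939 FPKM for IFI6 and 0.559 against 0.658 FPKM for OASL.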

How the results depend on the processing

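Over 3 lines, 4762 genes, 14 lower and 4 higher members were called. With no filter on low values these counts were 1179, 0 and 0. Without the line as replicate block they were 416, 2 and 0, with RSAD2 and CMPK2 as the 2 members. Leaving out 1 line gave 1709 to 4037 genes, 8 to 17 lower and 3 to 5 higher members. The fit without wild type is the same fit as the clones with the clone as block, and gave 4037 genes, 12 lower and 5 higher members. For the clones, the fit of 4 groups to all 6 libraries, without pairing, gave 0 of each. The pseudocount of 0.1 and the filter at 5 FPKM lost none of the 18 called members they tested (18 and 16), no intensity trend lost 4 and centring lost 2; the cause of the losses was not tested. Leaving out 1 line turned the sign of 3 members that did not pass over 3 lines. IFIH1 ranged from -0.16 to 0.000263, IFIT5 from -0.0182 to 0.0508, and ISG20 from -0.0633 to 0.408, the last past the threshold without wild type. With no filter, 165 genes differed by genotype under control siRNA, 240 under PRL1 siRNA and 157 for the difference of siRNA effects, against 0 each; with no trend the first and last were 4 and 4. With a pseudocount of 0.1, 2 members in clone 2 were 1.5-fold lower in place of 1. The unknown number of fragments limits what can be said of members below 1 FPKM.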

Other observations

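Several members lie next to each other in the gene order of RefSeq assembly UU_Cfam_GSD_1.0, which was used for order only. There were 8 pairs with no coding gene between them, 5 of which had both genes tested: CMPK2 and RSAD2 (-0.84 and -0.76 over 3 lines), IFI44 and IFI44L (-0.80 and -0.69), PARP9 and DTX3L (-0.47 and -0.28), OAS1 and OAS3 (-0.31 and -0.22) and OAS3 and OAS2 (-0.22 and -0.31). Both genes of each of these pairs had log2 fold changes below 0, and DTX3L, OAS1 and OAS3 did not pass. All of these genes are effectors, and OAS3 is part of both OAS pairs. Log2 fold changes were below 0 for 15 of the 19 tested effectors and for 6337 of all 12125 genes. Whether neighbours were more alike than other effectors was not tested.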
